A study of Mus musculus with 6 samples.

Results

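The genes described here encode the subunits of oxidative phosphorylation that are made from nuclear DNA. They were taken by gene symbol, as every row that begins with Ndufa, Ndufb, Ndufc, Ndufs or Ndufv followed by a number, Sdha to Sdhd, every symbol beginning with Uqcr, Cyc1, Cycs, Cox4 to Cox8 followed by a letter, and every symbol beginning with Atp5. This rule used no measured value and found 83 of the 16775 genes in the deposited table. By symbol, 37 belong to complex I, 4 to complex II, 9 to complex III, 15 to complex IV and 17 to complex V, and 1 is cytochrome c. Ndufa4, which is now placed in complex IV, is counted with complex I by its symbol. The subunits made from mitochondrial DNA have no row in the table, so no value of theirs is given.

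Messenger RNA was sequenced from osteoclasts, the multinucleated cells that resorb bone, grown from wild-type mouse bone marrow macrophages. The verapamil group had 3 libraries, and the control group had 2 (replicates 1 and 3, called control 1 and control 3 below). Control replicate 2 was not analysed here. All cells came from the marrow of tibia and femur, were kept in 30 ng/ml M-CSF, and were differentiated with 50 ng/ml RANKL in medium with 10% fetal bovine serum. Titles give day 5, while the protocol speaks of medium changes every 2 days until day 7. Verapamil blocks L-type voltage-gated calcium channels; its dose and timing are not stated in the labels. The labels do not say that the replicates are from different animals or cultures. The p-values therefore reflect the spread among these libraries, which could be technical.

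In oxidative phosphorylation, complex I takes electrons from NADH and complex II takes them from succinate, and both pass them to ubiquinone. Complex III hands them to cytochrome c, a small soluble carrier, and complex IV gives them to oxygen. Complexes I, III and IV pump protons across the inner mitochondrial membrane, and complex V (ATP synthase) lets the protons flow back and makes ATP. Osteoclasts are rich in mitochondria, and RANKL-driven differentiation is known to be accompanied by mitochondrial biogenesis.

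The libraries held 20202340 to 21494523 estimated counts each. Osteoclast markers were present in both groups, with all 11 of the list in the table. Their summed level was 3461, 3398 and 3311 CPM with verapamil (counts relative to the TMM-scaled library size), against 7047 and 7730 CPM in controls 1 and 3. Of these 11 markers, 8 were called lower and 1 higher with verapamil by the test described below. That test called 15.4% of all tested genes lower and 9.99% higher. The 10 macrophage markers summed to 5618 to 5826 CPM with verapamil, against 9796 and 8658 CPM in controls 1 and 3, and the 10 stromal or osteoblast markers to 502 to 527 CPM with verapamil, against 1249 and 1434 CPM in controls 1 and 3. In each of these 2 lists 8 markers were called lower and 0 higher, of 10 macrophage and 9 stromal or osteoblast markers tested. Neutrophil markers (4 of 6 in the table) summed to 2.66 to 3.10 CPM with verapamil, against 7.64 and 3.54 CPM in controls 1 and 3. Lymphocyte (2 of 5 in the table) and erythroid markers (3 of 4) reached at most 0.103 and 0.246 CPM in any library, with Hba-a1 at 0. The marker levels moved with the group, and their part in the results below was not tested. Fewer cells of a type and less RNA per cell cannot be told apart in these bulk libraries.

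The oxidative phosphorylation genes were lower with verapamil than with control 1, in every complex, and in summed CPM close to the level of control 3. Their summed level was 7523, 6799 and 7492 CPM in the verapamil libraries, against 11658 CPM in control 1 and 7422 CPM in control 3. The verapamil mean was 0.624 of control 1 and 0.98 of control 3. As a share of all counts, the 83 genes took 0.712%, 0.652% and 0.71% with verapamil, against 1.22% in control 1 and 0.826% in control 3. The controls thus stood further apart from each other than the verapamil libraries did. Control 3 lay inside the verapamil range of summed CPM, and above it as a share of all counts.

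Counts were tested with edgeR's quasi-likelihood test over all 12619 genes that passed a filter on low counts, and a gene was called at a Benjamini-Hochberg adjusted p under 0.05. Of the 83 genes, 81 passed the filter. With both controls together, 5 of these 81 were called lower with verapamil and 0 were called higher. Among all genes tested, 15.4% were called lower and 9.99% higher (1939 and 1261 genes, or 2331 lower and 915 higher under upper quartile factors, which gave 8 lower and 0 higher of the 81). The 5 were Ndufv1 of complex I, Uqcrc1 and Cyc1 of complex III, Cycs (cytochrome c itself) and Atp5g3 of complex V. A total of 29 genes had an unadjusted p under 0.05, and every one of them was lower. By DESeq2's Wald test 21 were called lower and 0 higher, with 15.2% and 12.7% of all genes called lower and higher. Estimates lay below 0 for 78 of the 81, from -0.87 to 0.19 with a median of -0.51 on the log2 scale (verapamil over control). The median over all tested genes was -0.01.

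All 3 verapamil libraries were below both controls for 28 of the 81 genes, and above both for 0. Over all tested genes the shares were 29% below and 27.7% above. The 28 of 81 were therefore close to the background on the lower side. Control 1 was higher than control 3 for 78 of the 81.

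Each complex was lower than control 1 and stood differently against control 3. Complex I summed to 1828, 1641 and 1827 CPM with verapamil, against 3076 CPM in control 1 and 1819 CPM in control 3. Complex III summed to 672, 606 and 674 CPM with verapamil, against 1085 and 703 CPM in controls 1 and 3. In complex V the sums were 2630, 2365 and 2596 CPM with verapamil, against 3911 and 2688 CPM in controls 1 and 3. Control 3 thus lay inside the verapamil range for complex I and just above it for complexes III and V. Complex IV summed to 1774, 1587 and 1773 CPM with verapamil, against 2799 CPM in control 1 and 1523 CPM in control 3. For this sum control 3 was the lowest library. The sum includes, by its symbol, Cox7a2l, which helps to join complexes III and IV. This gene supplied 21.1%, 21.4% and 20.6% of the complex IV counts with verapamil, against 14% and 15.6% in controls 1 and 3. Its part in the place of control 3 was not tested. Complex II, with 548, 532 and 549 CPM with verapamil, against 655.5 and 595 CPM in controls 1 and 3, was below both controls in every verapamil library. Each count was also divided by transcript length, with libraries then scaled to the same sum in place of TMM. On this scale, which weights the short subunits more, the verapamil mean of complex IV was 0.92 of control 3, against 1.12 in CPM. The change of library scaling alone moved single genes too. Cox4i1 had a verapamil mean of 474 CPM against 381 CPM in control 3, and 874 against 829 per length. How much of the change in complex IV came from each was not tested. Over the 82 genes with a transcript length (all but Ndufb1) the length-scaled sum was 0.587 of control 1 and 0.843 of control 3. On this scale control 3 lay above every verapamil library for complex I, at 4108 against 3246 to 3547. The same held for the sum of the 82 genes, at 14825 against 11844 to 12981. The place of control 3 for complexes I and IV and for the whole set therefore depended on the scale.

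**Figure D1:**
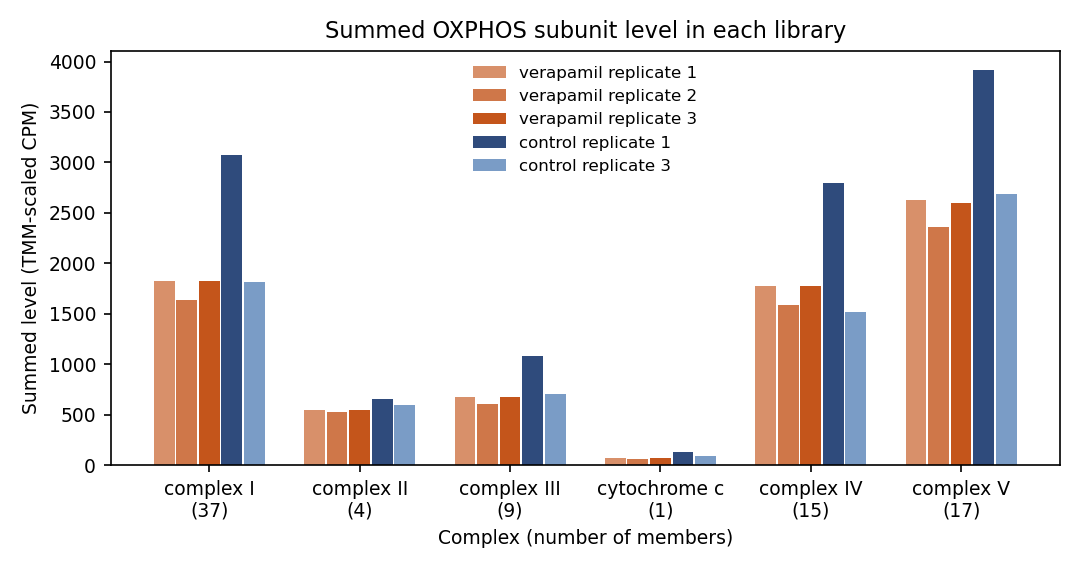
Bars give the summed level of the oxidative phosphorylation genes of each complex in each library, in TMM-scaled CPM on a linear axis starting at 0, with the number of genes per complex in brackets. In every complex control 1 is the highest bar, at 3911 CPM for complex V, while control 3 lies at 2688 CPM beside verapamil libraries of 2365 to 2630 CPM.

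Because the controls differed, verapamil was compared with each of them alone. These fits share their verapamil libraries and hold 1 control each, so their p-values contain no spread between controls, and the single control is assumed to vary like the verapamil libraries. Against control 1, 76 of 82 tested genes were called lower and 0 higher, while 29.8% of all genes were called lower and 31% higher. Against control 3, 6 of 81 were called lower and 5 higher, while 19.2% of all genes were called lower and 16.1% higher. The median log2 fold change of the oxidative phosphorylation genes was -0.87 against control 1 and -0.04 against control 3. By complex, the medians against control 1 and control 3 were -0.87 and -0.06 for complex I, -0.38 and -0.11 for complex II, and -0.87 and -0.10 for complex III. They were -0.89 and -0.42 for cytochrome c, -1.01 and 0.01 for complex IV, and -1.02 and -0.06 for complex V. Against control 3 the lowest of these was that of cytochrome c, and against control 1 the least negative was that of complex II.

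Of the 81 genes, 49 were estimated lower against both controls and 30 lower against control 1 but higher against control 3. The other 2, Ndufs1 and Uqcrc2, went the opposite way, and 0 were higher against both. The 6 genes called lower against control 3 were the 5 above and Atp5b, and all 6 were also called lower against control 1. Another 4 genes, Cox4i1, Ndufa6, Atp5g2 and Uqcrh, were called lower against control 1 and higher against control 3. Cox7a2l was called higher against control 3 and was not called against control 1.

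**Figure D2:**
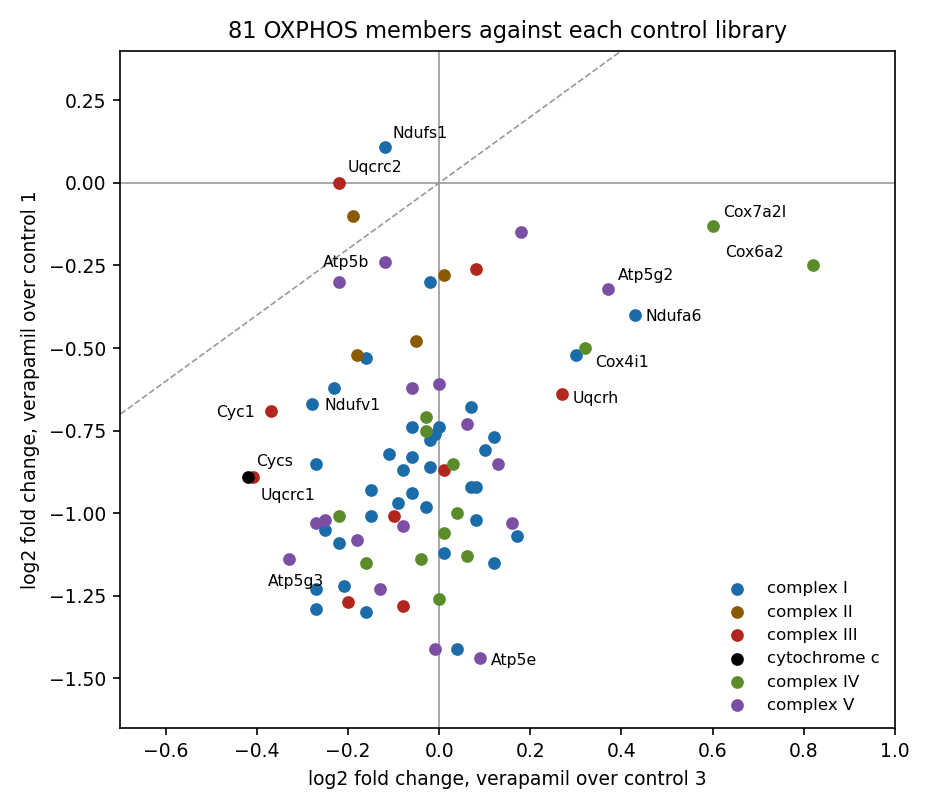
Each point is 1 of the 81 genes tested in both fits, coloured by complex, with its log2 fold change over control 3 on the x axis and over control 1 on the y axis. Most points lie below the dashed line of equality, with medians of -0.04 on the x axis and -0.87 on the y axis. Cycs and Uqcrc1 lie farthest to the left, and Cox6a2, Cox7a2l and Ndufa6 farthest to the right.

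The 5 genes called with both controls are described first. Ndufv1 (Entrez 17995) encodes the flavoprotein subunit of complex I that oxidises NADH. It lies on chromosome 19 at 4007499 to 4012755 on GRCm38. Its level was 49.6, 45.8 and 46.2 CPM in the verapamil libraries, against 75.4 CPM in control 1 and 57.5 CPM in control 3. All verapamil libraries were below both controls, and the log2 fold change was -0.49 (SE 0.139, edgeR adjusted p = 0.0461). Against control 3 alone it was -0.28 (edgeR adjusted p = 0.0371).

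Uqcrc1 (Entrez 22273; chromosome 9 at 108936648 to 108949641) encodes a core protein of complex III on its matrix side. The gene had 96.7, 87.3 and 91.9 CPM in the verapamil libraries, against 170.4 CPM in control 1 and 122 CPM in control 3. Means were 91.99 ± 4.68 CPM with verapamil (SD, n = 3) and 146 ± 33.9 CPM in the controls (SD, n = 2). The groups did not overlap, and the log2 fold change was -0.67 (SE 0.153, edgeR adjusted p = 0.0242), or -0.41 against control 3 alone (edgeR adjusted p = 0.00455). Cyc1 (Entrez 66445; chromosome 15 at 76343513 to 76346260) encodes cytochrome c1, the heme protein of complex III that reduces cytochrome c. It had 63.4, 56.97 and 51.7 CPM in the verapamil libraries, against 92.5 CPM in control 1 and 74.2 CPM in control 3. Its groups did not overlap either (log2 -0.54, SE 0.141, edgeR adjusted p = 0.0374).

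Cycs (Entrez 13063; chromosome 6 at 50562563 to 50566569) encodes somatic cytochrome c. Its level was 70.9, 67.5 and 73.8 CPM in the verapamil libraries, against 131 CPM in control 1 and 94.7 CPM in control 3, all verapamil libraries lying below both controls. The log2 fold change was -0.67 with both controls (SE 0.151, edgeR adjusted p = 0.0229) and -0.42 against control 3 (edgeR adjusted p = 0.00432). Its transcripts share stretches of at least 200 bases, at 95% identity or more, with 4 other genes, and the authors' counting of such reads is not stated. Atp5g3 (Entrez 228033; chromosome 2 at 73908447 to 73912464) encodes subunit c, which forms the rotor ring of ATP synthase. It had 145, 126 and 141 CPM in the verapamil libraries, against 303 CPM in control 1 and 174 CPM in control 3. The verapamil libraries were again lowest (log2 -0.79, SE 0.227, edgeR adjusted p = 0.0483).

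These calls were close to the threshold. With DESeq2 size factors in the edgeR fit, Ndufv1 and Atp5g3 were not called (adjusted p = 0.0502 and 0.0516), and with a stricter filter on low counts (minimum count 50) Atp5g3 was not called (edgeR adjusted p = 0.0504). When any single verapamil library was left out, 0 of the 81 genes were called, with log2 fold changes of Uqcrc1 between -0.71 and -0.64 and adjusted p from 0.0838 to 0.102 in those fits. With a trend on transcript length removed (below), Ndufv1 and Cyc1 were no longer called (log2 -0.28 and -0.30, edgeR adjusted p = 0.0698 and 0.0622).

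**Figure D3:**
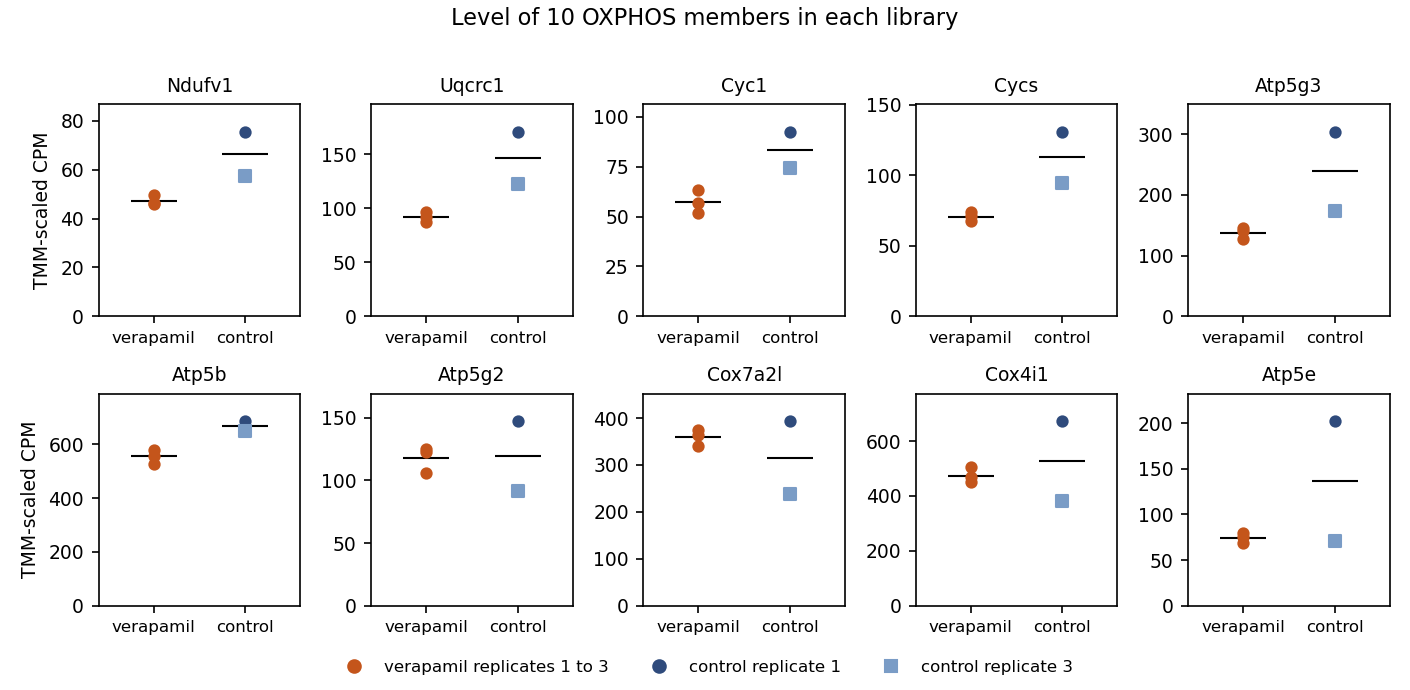
Points give the level of 10 named genes in each library (TMM-scaled CPM, linear axes starting at 0), with verapamil on the left, control 1 as a dark circle, control 3 as a light square, and black lines at the group means. In the upper row and for Atp5b, all verapamil points lie below both controls. For Atp5g2, Cox7a2l and Cox4i1, control 3 lies below the verapamil points, and for Atp5e it lies among them.

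Genes of this group are known to share promoter motifs of nuclear regulators of mitochondrial genes, so their promoters were searched for these. The table of 300-base RefSeq promoters on GRCm38.p6 (250 bases before to 50 after a gene's start) held 73 promoters for 68 of the 83 genes. The motifs searched, on both strands, were the NRF1 core TGCGCA (its own reverse complement), the ETS motif CCGGAAG and the ERR motif AAGGTCA. The NRF1 core was found in 26% of the 73 promoters, against 7.76% of all 32851 promoters. The ETS motif was found in 23.3% against 8.86%, and the ERR motif in 11% against 4.72%. Promoters of 4 called genes are shown, followed by that of Atp5g2, which encodes the same rotor subunit as Atp5g3 and was not called. Capitals mark the motif matches.

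Uqcrc1, chr9:108936398-108936697, plus strand: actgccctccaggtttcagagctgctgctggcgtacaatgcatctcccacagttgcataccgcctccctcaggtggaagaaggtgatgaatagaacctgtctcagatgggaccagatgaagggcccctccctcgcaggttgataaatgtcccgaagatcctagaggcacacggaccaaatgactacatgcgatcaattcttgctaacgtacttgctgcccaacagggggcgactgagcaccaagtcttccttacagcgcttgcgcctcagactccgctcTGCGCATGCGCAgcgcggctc

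Cycs, chr6:50566520-50566819, minus strand: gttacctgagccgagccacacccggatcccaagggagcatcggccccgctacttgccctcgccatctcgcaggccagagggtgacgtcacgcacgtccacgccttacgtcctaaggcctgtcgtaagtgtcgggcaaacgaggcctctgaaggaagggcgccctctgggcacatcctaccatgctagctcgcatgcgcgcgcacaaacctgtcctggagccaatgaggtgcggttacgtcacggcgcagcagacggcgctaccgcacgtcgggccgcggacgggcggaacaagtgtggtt

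Ndufv1, chr19:4012706-4013005, minus strand: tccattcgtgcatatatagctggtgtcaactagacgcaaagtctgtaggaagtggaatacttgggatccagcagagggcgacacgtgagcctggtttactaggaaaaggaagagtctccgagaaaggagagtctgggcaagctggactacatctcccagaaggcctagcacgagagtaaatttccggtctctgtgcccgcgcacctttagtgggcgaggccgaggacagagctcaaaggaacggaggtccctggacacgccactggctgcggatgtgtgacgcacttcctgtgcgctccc

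Atp5g3, chr2:73911277-73911576, minus strand: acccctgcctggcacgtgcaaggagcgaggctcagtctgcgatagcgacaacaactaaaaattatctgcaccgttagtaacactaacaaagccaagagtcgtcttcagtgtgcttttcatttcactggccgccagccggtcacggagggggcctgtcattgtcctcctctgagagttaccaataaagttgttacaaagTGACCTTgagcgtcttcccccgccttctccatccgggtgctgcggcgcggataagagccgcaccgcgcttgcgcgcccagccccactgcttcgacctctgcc

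Atp5g2, chr15:102670998-102671297, minus strand: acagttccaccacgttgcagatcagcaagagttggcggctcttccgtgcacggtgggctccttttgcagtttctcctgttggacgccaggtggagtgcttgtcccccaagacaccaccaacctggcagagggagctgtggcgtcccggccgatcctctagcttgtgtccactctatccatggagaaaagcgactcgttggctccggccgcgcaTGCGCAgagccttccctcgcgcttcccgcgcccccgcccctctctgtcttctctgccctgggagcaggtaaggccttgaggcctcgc

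Uqcrc1 holds 2 adjoining copies of TGCGCA just downstream of its start, and Atp5g2 holds 1. Atp5g3 holds 1 match to AAGGTCA, written here as TGACCTT on the strand shown, at a start inside the gene. Cycs and Ndufv1 hold 0 matches to the 3 motifs in this window. A match is a run of letters, and binding was not measured.

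In complex I, 37 of 37 genes passed the filter, 1 (Ndufv1) was called lower and 0 higher, and all 37 estimates were below 0, from -0.87 (Ndufa5) to -0.01 (Ndufs1). Against control 1, 36 were called lower, and against control 3, 1 was called lower and 1 higher. Ndufv2, an iron-sulfur subunit that neighbours Ndufv1, had 58.6, 57.5 and 52.6 CPM with verapamil, against 99.1 and 60.8 CPM in controls 1 and 3. Every verapamil library was below control 3 by a small margin and below control 1 by a wide one. Ndufs1, the largest subunit, which carries iron-sulfur clusters, had 84.8, 79.6 and 81.2 CPM with verapamil, against 75.8 and 89.1 CPM in controls 1 and 3. Its estimate was the closest to 0 in complex I, and its verapamil values lay between the controls. Ndufs3, another core subunit, had 51.5, 44.3 and 45.7 CPM with verapamil, against 89.7 and 52.6 CPM in controls 1 and 3, with verapamil below both controls. Reads of Ndufs3 may be split with a near-identical copy, Gm12251.

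Ndufs7, an iron-sulfur subunit at the quinone site, had 37.7, 33.2 and 37.4 CPM with verapamil, against 68.5 and 34.3 CPM in controls 1 and 3, where control 3 overlapped the verapamil values. Ndufs8, with the clusters that lead to Ndufs7, had 26.2, 20.4 and 23.9 CPM with verapamil, against 42.3 and 28.4 CPM in controls 1 and 3. Its groups did not overlap, and it did not pass the test (log2 -0.59, SE 0.2, edgeR adjusted p = 0.0778). The lowest estimates of complex I belonged to small accessory subunits, Ndufa5 (-0.87, edgeR adjusted p = 0.0764) and Ndufa2 (-0.86, edgeR adjusted p = 0.142), and both missed the threshold. Ndufa5 had 19.8, 15.3 and 19.3 CPM with verapamil, against 44.5 and 21.99 CPM in controls 1 and 3. Ndufa2 had 44.02, 43.9 and 50.7 CPM with verapamil, against 123 and 45.2 CPM in controls 1 and 3, so its low estimate came with control 1 alone being high.

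Among the complex I genes, 12 had estimates above 0 against control 3 and below 0 against control 1. Ndufa6, an accessory subunit of the matrix arm, had 67.4, 57.4 and 69.99 CPM with verapamil, against 85.9 and 48.2 CPM in controls 1 and 3. It was called higher against control 3 (log2 0.43, edgeR adjusted p = 0.0209) and lower against control 1 (-0.40, edgeR adjusted p = 0.0114), and with both controls the estimate was -0.05. Ndufb11, of the membrane arm, had 66.8, 54.7 and 65.95 CPM with verapamil, against 89.6 and 50.9 CPM in controls 1 and 3, with log2 values of -0.52 against control 1 and 0.30 against control 3. It shares 12.9% of its exon bases with Rbm10 and has a near-identical copy, Gm6444. The others were further accessory subunits, and Ndufs7 and Ndufa2 are described above. Ndufa1 had 39.05, 34.5 and 43.2 CPM with verapamil, against 66.3 and 36.03 CPM in controls 1 and 3. Ndufa3 had 36.8, 31.2 and 41.3 CPM with verapamil, against 80.7 and 33.6 CPM in controls 1 and 3. In both, control 3 was inside the verapamil range. Ndufb1 had 30.8, 30.7 and 43.8 CPM with verapamil, against 71.4 and 33.3 CPM in controls 1 and 3. Ndufb2 had 18.9, 16.7 and 21.9 CPM with verapamil, against 40.4 and 17.1 CPM in controls 1 and 3. Ndufb5 had 54.6, 51.2 and 52.4 CPM with verapamil, against 92.6 and 49.4 CPM in controls 1 and 3. For Ndufb1 and Ndufb2 control 3 was inside the verapamil range. For Ndufb5 every verapamil library was above control 3, as for Ndufa6, Ndufb11 and, by a narrow margin, Ndufs5 (below). Ndufb7 had 41.7, 40.5 and 42.3 CPM with verapamil, against 90.1 and 41.5 CPM in controls 1 and 3. Ndufc2 had 89.4, 76.8 and 84.7 CPM with verapamil, against 134 and 79.7 CPM in controls 1 and 3. Ndufs5 had 40.8, 39.98 and 44.95 CPM with verapamil, against 79.3 and 39.96 CPM in controls 1 and 3, and it has a near-identical copy, BC002163. For all 12, every verapamil library was below control 1, and the log2 values against control 3 lay between 0.01 (Ndufb7) and 0.43 (Ndufa6).

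Complex II, succinate dehydrogenase, feeds electrons from the tricarboxylic acid cycle. With both controls and against control 1 alone its median was the nearest to 0 of the 5 complexes, and against control 3 alone (-0.11) it was the farthest from 0. All 4 genes were tested, 0 were called with both controls, and the median was -0.21. Their median transcript length was 1186 bases, against 533 to 710 bases for the tested genes of the other complexes. Sdha, the flavoprotein that oxidises succinate, had 262, 264 and 267 CPM in the verapamil libraries, against 283 CPM in control 1 and 303 CPM in control 3. Sdhb, its iron-sulfur partner, had 77.2, 69.4 and 79.2 CPM with verapamil, against 108 and 85.5 CPM in controls 1 and 3. Sdhc, a membrane anchor, had 106, 102 and 105 CPM with verapamil, against 145 and 108 CPM in controls 1 and 3. These 3 had every verapamil library below both controls. Sdhd, the other anchor, had 102, 97.7 and 98.1 CPM with verapamil, against 120.0 and 98.4 CPM in controls 1 and 3, overlapping control 3. In complex II, Sdha alone had a lower value in control 1 than in control 3, and its log2 fold change was -0.10 against control 1 and -0.19 against control 3. Against control 1, Sdhb, Sdhc and Sdhd were called lower (log2 -0.52, -0.48 and -0.28, edgeR adjusted p = 0.00108, 0.000469 and 0.00888). Against control 3, 0 of the 4 were called, with Sdha nearest to the threshold (edgeR adjusted p = 0.0507).

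In complex III, 9 of 9 genes were tested, Uqcrc1 and Cyc1 were called lower, and the median was -0.54. Uqcrc2, the partner of Uqcrc1 among the core proteins, had 94.9, 85.6 and 92.3 CPM in the verapamil libraries, against 90.8 CPM in control 1 and 106 CPM in control 3. Its verapamil values lay around control 1 and below control 3, unlike those of Uqcrc1. Uqcrc2 shares 19.7% of its exon bases with Pdzd9. Uqcrfs1, the Rieske iron-sulfur protein, had 90.5, 79.4 and 77.5 CPM with verapamil, against 99.1 and 78.3 CPM in controls 1 and 3, overlapping control 3. Both Cyc1 and Uqcrfs1 carry electrons towards cytochrome c, and the ratio of their counts was 0.7, 0.717 and 0.667 with verapamil (Cyc1 over Uqcrfs1), against 0.933 and 0.948 in controls 1 and 3. This pair was chosen after its values were seen, and the ratio was not tested.

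Uqcrh, the hinge protein that binds cytochrome c1, had 121, 109 and 123 CPM in the verapamil libraries, against 183 CPM in control 1 and 97.7 CPM in control 3. It was called lower against control 1 (log2 -0.64, edgeR adjusted p = 0.000266) and higher against control 3 (0.27, edgeR adjusted p = 0.0442). Uqcrb, a small subunit near the quinone site, had 65.4, 58.4 and 78.5 CPM with verapamil, against 124 and 67.3 CPM in controls 1 and 3, overlapping control 3, and it has 3 near-identical copies (Gm16089, Gm2962 and Gm5457). The other 3 small subunits, Uqcr10, Uqcr11 and Uqcrq, had log2 estimates of -0.63, -0.80 and -0.84 with both controls and -0.10, -0.08 and -0.20 against control 3, and did not pass the test in either.

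In complex IV, cytochrome c oxidase, 13 of 15 genes passed the filter, 0 were called with both controls, and 11 estimates were below 0 (median -0.57). Against control 1, 12 of 14 were called lower. Against control 3, 2 were called higher and 0 lower. Cox4i1, the common form of the regulatory subunit 4, had 504, 450.1 and 468 CPM in the verapamil libraries, against 672 CPM in control 1 and 381 CPM in control 3. Its verapamil values lay between the controls, and the log2 fold change was -0.50 against control 1 (edgeR adjusted p = 0.000706) and 0.32 against control 3 (edgeR adjusted p = 0.0151). It shares 9.94% of its exon bases with Emc8.

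Cox7a2l, which helps to join complexes III and IV into supercomplexes, had 374, 339.5 and 365 CPM in the verapamil libraries, against 393 CPM in control 1 and 238 CPM in control 3. Its estimate was the highest of the 81, level with that of the low-count isoform Cox6a2 (log2 0.19, SE 0.209, edgeR adjusted p = 0.524 with both controls), and against control 3 it was called higher (log2 0.60, SE 0.0793, edgeR adjusted p = 0.00054). Cox7a2, the related subunit of complex IV, had 68.96, 63.6 and 75.3 CPM with verapamil, against 138 and 67.7 CPM in controls 1 and 3. The count ratio of Cox7a2l to Cox7a2 was 5.42, 5.34 and 4.84 with verapamil, against 2.84 in control 1 and 3.51 in control 3. The ratio was above both controls in every verapamil library. This pair too was chosen after its values were seen, and the ratio was not tested.

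Cox5a, a matrix-side subunit, had 119.8, 112 and 122 CPM with verapamil, against 259 and 121 CPM in controls 1 and 3. Cox5b, the zinc-binding subunit, had 74.7, 60.8 and 73.05 CPM with verapamil, against 155 and 78.2 CPM in controls 1 and 3, with verapamil below both controls. Cox6c, a small membrane subunit, had 88.6, 69.2 and 104 CPM with verapamil, against 192 and 84.3 CPM in controls 1 and 3. For Cox5a and Cox6c control 3 was inside the verapamil range. Cox5a shares 12.8% of its exon bases with Gm26631. Cox6b1, which faces the intermembrane space, had 110.3, 103 and 118 CPM with verapamil, against 229.8 and 109.7 CPM in controls 1 and 3. Cox8a, the smallest common subunit, had 132, 119 and 126 CPM with verapamil, against 227 and 124 CPM in controls 1 and 3. Both overlapped control 3 and were below control 1 in all verapamil libraries.

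Isoforms known from other tissues were near the limit of detection. Cox4i2, the lung form of subunit 4, had 1, 0 and 0 counts with verapamil, against 5 and 2 counts in controls 1 and 3. Cox6b2, known from testis, had 7, 3 and 6 counts with verapamil, against 18 and 7 counts in controls 1 and 3. Neither passed the filter with both controls. The muscle forms Cox6a2 and Cox7a1 did, with 23, 27 and 45 counts of Cox6a2 with verapamil, against 42 and 21 counts in controls 1 and 3. Cox7a1 had 31, 23 and 20 counts with verapamil, against 66 and 29 counts in controls 1 and 3. Neither was called with both controls (log2 0.19 and -0.76, edgeR adjusted p = 0.765 and 0.22). Cox6a2 shares 10.3% of its exon bases with Itgad, and these low counts limit what could be detected.

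In complex V, ATP synthase, all 17 genes were tested, Atp5g3 was called lower, 0 were called higher, and 16 estimates were below 0 (median -0.56). Within it, the estimates of the large subunits of the catalytic head were among those nearest to 0. Atp5a1, the alpha subunit, had 522, 486 and 492 CPM in the verapamil libraries, against 590.4 CPM in control 1 and 545 CPM in control 3. Atp5b, the catalytic beta subunit (Entrez 11947; chromosome 10 at 128083307 to 128090388), had 580.5, 528 and 559 CPM in the verapamil libraries, against 686 CPM in control 1 and 651 CPM in control 3. Both had all verapamil libraries below both controls. Atp5b was called against each control alone (log2 -0.30 and -0.22 against controls 1 and 3, edgeR adjusted p = 0.00784 and 0.0447), and not in the fit with both (log2 -0.27, SE 0.0937, edgeR adjusted p = 0.0856). Atp5c1, the gamma subunit that forms the central stalk, had 195, 179 and 186 CPM with verapamil, against 207 and 165 CPM in controls 1 and 3, between the controls. Atp5e, the small epsilon subunit, had 75.01, 68.5 and 80.1 CPM with verapamil, against 202 and 70.4 CPM in controls 1 and 3. It had the lowest value of complex V against control 1 (log2 -1.44) and one above 0 against control 3 (0.09). The transcripts of Atp5a1 (2572 bases), Atp5b (1916) and Atp5c1 (1000) are longer than the complex V median of 710 bases. That of Atp5e is shorter (421 bases). Whether length bears on these estimates was not tested.

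Atp5g1, Atp5g2 and Atp5g3 encode the same mature c subunit with different import sequences. Their summed level was 318, 274 and 310.5 CPM with verapamil, against 542.5 CPM in control 1 and 319 CPM in control 3. Atp5g3 supplied 45.7%, 46.1% and 45.4% of their counts with verapamil, against 55.9% and 54.4% in controls 1 and 3. Atp5g2 supplied 38.7%, 38.6% and 40.3% with verapamil, against 27.1% and 28.7% in controls 1 and 3. Atp5g1 supplied 15.7%, 15.3% and 14.3% with verapamil, against 17% and 16.9% in controls 1 and 3. The proportions of the 3 genes thus differed between the groups in the same way against either control, whose own proportions lay within 2 percentage points of each other. Atp5g2 itself (Entrez 67942) had 123, 106 and 125 CPM with verapamil, against 147 and 91.5 CPM in controls 1 and 3. Its log2 fold change was -0.32 against control 1 (edgeR adjusted p = 0.021) and 0.37 against control 3 (edgeR adjusted p = 0.023). Atp5g1 had 49.9, 41.9 and 44.3 CPM with verapamil, against 92.1 and 54.01 CPM in controls 1 and 3, with verapamil below both controls (log2 -0.69, SE 0.226, edgeR adjusted p = 0.0717). The set was singled out after its values were seen and its proportions were not tested. Atp5g2 has 2 near-identical copies (Gm10175 and Gm10231) and Atp5g1 has 1 (Gm10039), so reads may be split between loci for both.

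**Figure D4:**
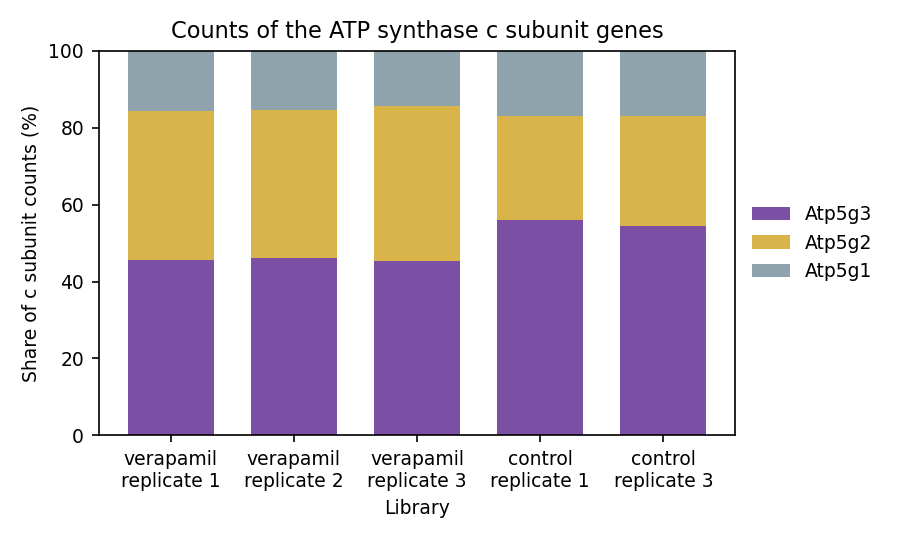
Stacked bars give the share of counts (percent, axis from 0) that Atp5g3, Atp5g2 and Atp5g1 supplied to the counts of the 3 c subunit genes in each library. Atp5g3 takes 45.4% to 46.1% in the verapamil libraries, against 55.9% and 54.4% in controls 1 and 3, and Atp5g2 takes the larger share in the verapamil libraries.

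The remaining genes of complex V form the stalks and the membrane part. Atp5o, the subunit that links the head to the side stalk, had 95.3, 82.1 and 90.5 CPM with verapamil, against 182 and 108 CPM in controls 1 and 3. Its groups did not overlap, and it missed the threshold (log2 -0.70, SE 0.217, edgeR adjusted p = 0.0613). It shares 43.8% of its exon bases with Donson and with the transcripts D430001F17Rik and Gm15976, and has a near-identical copy, Gm5436. Atp5pb, the main rod of the side stalk, had 195, 172 and 187 CPM with verapamil, against 282 and 185 CPM in controls 1 and 3. Atp5h, another side stalk subunit, had 112, 99.3 and 109.7 CPM with verapamil, against 177 and 103 CPM in controls 1 and 3. Both overlapped control 3. Atp5l, a membrane subunit with 9 near-identical copies, had 148, 136 and 157 CPM with verapamil, against 265 and 135 CPM in controls 1 and 3. Atp5mpl, a small associated protein, had 38.1, 33.5 and 44.5 CPM with verapamil, against 79.2 and 34.8 CPM in controls 1 and 3. These 4 were all below control 1, with log2 values against control 3 of 0.00 to 0.16. Atp5h has 3 near-identical copies (Gm10250, Gm4953 and Gm5051).

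Levels of different genes were compared only per transcript base, as counts per base, scaled like TPM to the same sum in every library. Lengths were medians over each gene's protein-coding transcripts. Cox4i1 had the highest mean of the 82 genes with a length, at 874 ± 34.2 with verapamil (SD, n = 3) and 1024 ± 277 in the controls (SD, n = 2). In the verapamil libraries Cox7a2l came next (448 ± 12.9 with verapamil, 416 ± 94.3 in the controls). Atp5b had 398.5 ± 10.7 with verapamil and 518 ± 46.6 in the controls, and Atp5l had 371 ± 21.5 with verapamil and 531 ± 181 in the controls. Both had higher means than Cox7a2l in the controls, as did other genes, and with SDs that overlap the order there is not resolved. The highest gene of complex III was Uqcrh (341 ± 16.5 with verapamil, 428 ± 133 in the controls). By symbol, that of complex I was Ndufa4 (280.4 ± 25 with verapamil, 463 ± 132 in the controls), and that of complex II was Sdha (201 ± 4.62 with verapamil, 241 ± 42.1 in the controls). Atp5g1 had 23.3 ± 1.67 with verapamil and 39.6 ± 9.83 in the controls, the lowest of complex V. Atp5g3 had 263 ± 13.5 with verapamil and 481 ± 127 in the controls, and Atp5g2 had 237 ± 16.9 with verapamil and 254 ± 52.6 in the controls. Levels depend on the lengths taken, and with RefSeq-matched lengths, added after seeing the data, Cox4i1 had 1247 ± 43.3 with verapamil and 1447 ± 347 in the controls.

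Within complexes, some genes took a different share of their own complex's counts. In complex I, 8 of 37 genes had a smaller share in every verapamil library than in either control, among them Ndufa4, Ndufs3 and Ndufa5, and 4 a larger one (Ndufa6, Ndufa12, Ndufb11 and Ndufc2). When the count of every tested gene was set over the same sum, 11.9% lay below both controls and 39.9% above. In complex III, Uqcrc1 took 14.4%, 14.4% and 13.6% with verapamil, against 15.7% and 17.4% in controls 1 and 3, while Uqcrh and Uqcrfs1 took a larger share (12.4% below and 47.1% above over all tested genes). In complex IV, 8 of 15 had a smaller share, and Cox4i1 and Cox7a2l a larger one. Among the 8 were Cox4i2 and Cox6b2, which had few counts and did not pass the filter. The background, over tested genes only, was 14.1% below and 19.4% above. Cox7a2l took 21.1%, 21.4% and 20.6% of complex IV with verapamil, against 14% and 15.6% in controls 1 and 3. In complex V, 3 of 17 (Atp5g1, Atp5g3 and Atp5o) took a smaller share and 2 (Atp5c1 and Atp5g2) a larger one, over a background of 14.1% below and 43.9% above. In complex II the shares of all 4 genes overlapped. Shares of 1 complex sum to 100%, so they move against each other.

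The oxidative phosphorylation transcripts are short, with a median of 669.5 bases against 2161 bases over all genes of the table with a length. The controls differed by transcript length, and the median log2 ratio of control 1 to control 3 was 0.82 for the 81 genes, against -0.08 over all tested genes. Over 80 of these genes, the log2 ratio of control 1 to control 3 had a Pearson correlation of -0.776 with log2 length (RefSeq-matched lengths, chosen after seeing the data), and over 12309 tested genes it was -0.615. With median lengths over protein-coding transcripts they were -0.573 over 80 of these genes and -0.479 over 12360 tested genes. These are correlations across genes of the same 2 libraries, given as a description.

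The genes were then binned by RefSeq-matched length, a choice made after seeing the data. Among genes under 750 bases, the median log2 fold change against control 1 was -1.01 for 38 oxidative phosphorylation genes and -0.76 for all 307 tested genes of that length. Against control 3 it was 0.01 for the oxidative phosphorylation genes and 0.06 for all genes of that length. From 750 to under 1500 bases, 26 of the genes had -0.79 against control 1 and -0.06 against control 3, beside -0.47 and 0.02 for all 1627 genes. From 1500 to under 3000 bases, 14 of the genes had -0.57 and -0.19, beside -0.10 and 0.00 for all 4481 genes, and this bin is thinly filled. In each of these bins the oxidative phosphorylation genes lay below all genes of like length against control 1, and by less against control 3. Whether length accounts for their position was not tested.

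**Figure D5:**
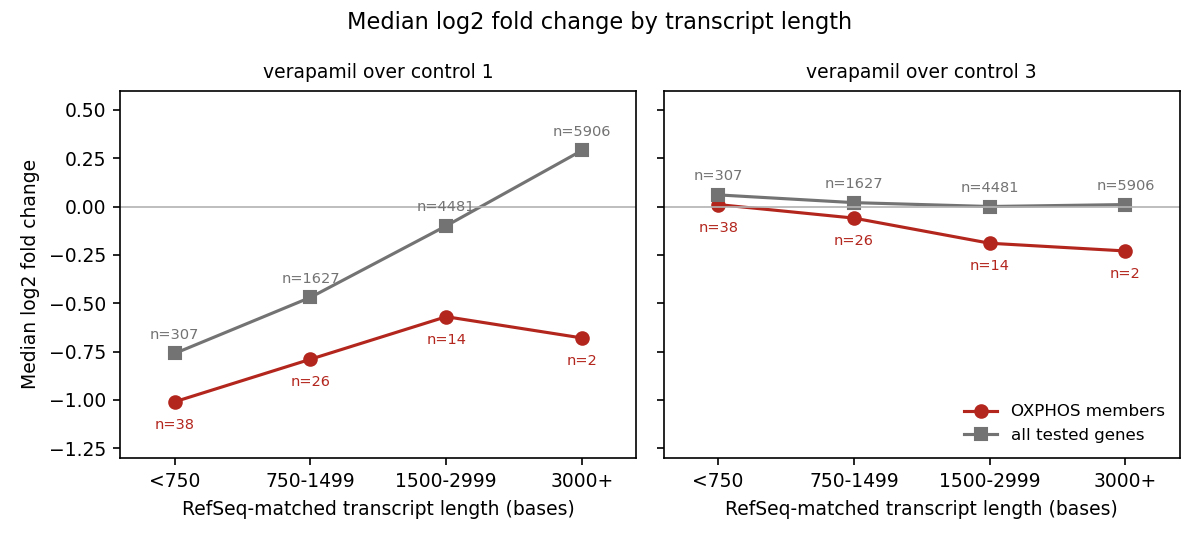
Points give the median log2 fold change of the oxidative phosphorylation genes (red circles) and of all tested genes (grey squares) in 4 bins of RefSeq-matched transcript length. Control 1 is the comparison on the left and control 3 on the right, with the number of genes at each point. Under 750 bases the oxidative phosphorylation genes have -1.01 against control 1 and 0.01 against control 3. The bin from 3000 bases holds 2 of them.

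With a smooth trend on length removed from each library, 3 of the 81 genes were called lower (Uqcrc1, Cycs and Atp5g3) and 0 higher. Over all genes 15.6% were then called lower and 24.7% higher. The median of the 81 was -0.26, while that of all genes moved to 0.12. With RefSeq-matched lengths, added after seeing the data, 8 were called lower and 6 higher, over a background of 17% lower and 31% higher, with medians of -0.11 for the 81 genes and 0.13 for all. The 8 lower were Uqcrc1 (-0.39), Cycs (-0.60), Atp5g3 (-0.36), Ndufa5 (-0.39), Ndufs6 (-0.35), Ndufa11 (-0.30), Atp5o (-0.29) and Cox6a1 (-0.20). The 6 higher were Cox7a2l (0.55), Ndufa6 (0.42), Atp5g2 (0.40), Atp5c1 (0.30), Cox4i1 (0.28) and Uqcrh (0.24). Uqcrc1, Cycs and Atp5g3 were the genes called lower with both controls, against each control alone, and under both corrections for length. They were not called when a verapamil library was left out, and Atp5g3 was also not called under the other scaling and the stricter filter given above. Cycs and Atp5g3 were also not called with the replicate number as a block and the length trend removed (below). Ndufs6 has a near-identical copy, Ndufs6b.

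Other genes of mitochondrial energy metabolism were counted for context, from 5 lists. In the same fit with both controls, 15.4% of all tested genes were called lower and 9.99% higher. Of 55 tested assembly factors of the respiratory complexes, 2 were called lower and 0 higher (median -0.21, and -0.43 and 0.05 against controls 1 and 3). They were Ttc19, needed for complex III, with 7.43, 7.08 and 7.34 CPM with verapamil, against 13.1 and 10.4 CPM in controls 1 and 3 (log2 -0.69, edgeR adjusted p = 0.0191), and Cox20, a complex IV factor (log2 -0.56, edgeR adjusted p = 0.0467). Of 18 genes of the tricarboxylic acid cycle and pyruvate entry, 4 were lower and 1 higher (median -0.22, and -0.14 and -0.21 against controls 1 and 3). Idh3a, the catalytic subunit of isocitrate dehydrogenase, had 23.8, 22.4 and 23.3 CPM with verapamil, against 39.4 and 41.1 CPM in controls 1 and 3 (log2 -0.80, edgeR adjusted p = 0.00323). Fh1, fumarase, fell by 0.62 on the log2 scale (edgeR adjusted p = 0.00863), and Ogdh, of the oxoglutarate dehydrogenase, rose by 0.43 (edgeR adjusted p = 0.0241). These 3 enzymes moved in the same direction against either control.

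Of 15 tested regulators of mitochondrial biogenesis, Myc, a transcription factor of growth genes, was called lower (log2 -1.22, edgeR adjusted p = 0.00123) and 0 were called higher (median -0.03). Of 78 mitochondrial ribosomal proteins 3 were lower and 0 higher, with medians of -0.33 with both controls and -0.55 and -0.02 against controls 1 and 3. Cytosolic ribosomal proteins, another group of short transcripts, had medians of -0.14, -0.49 and 0.37 in the same order, with 1 of 79 (Rpl39l) called lower and 0 higher with both controls. Against control 1, 75 of these 79 had estimates below 0, beside 6479 of all 12829 tested genes. Against control 3, 76 of the 79 had estimates above 0, beside 6500 of all 12855. The medians of the oxidative phosphorylation genes were -0.51, -0.87 and -0.04 in that order, so against control 3 they and the mitochondrial ribosomal proteins were both near 0. The differences between the lists were not tested.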

How the data were processed

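The authors deposited 1 table of estimated counts of reads per gene, which hold 2 decimals and look unnormalized by their values. The table names its genes by Entrez identifier and symbol per the file headers. The genome build is GRCm38 (mm10), per the submitters' processing notes. Aligner, counter, annotation and use of strand are not given in sources used here, so reads of overlapping genes cannot be told apart. The table lists genes of the type messenger RNA.

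The genes described and the other lists and markers were chosen with earlier results of these data known. The test was planned for 3 against 3 libraries and run as planned on 3 against 2. Each estimated count was rounded to a whole number. The quasi-likelihood test of edgeR 4.0.16 (R 4.3.3) was run with TMM scaling, the default filter (minimum count 10, minimum total 15) and no term but the group. It had 3 residual and 3.28 prior degrees of freedom and a biological coefficient of variation of 15.3%. Adjustment was by Benjamini-Hochberg over 12619 genes. Each SE is the log2 fold change over the root of its F statistic. Alternatives were DESeq2 1.42.0 (its test and its size factors), upper quartile factors, other filters on low counts, leaving out each library, removing the length trend, and a replicate block. The fit was tested on simulated data. Depth was 20202340 to 21494523 counts per library. Differences between replicates exceeded counting noise, with a variance of 1.95 to 3.85 times that of counting between verapamil libraries and 24.9 times between the controls.

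Named genes were, by rule, the called genes of smallest p and largest change per complex, core subunits, tissue-restricted isoforms (Cox7b2, Cox8b and Cox8c, also on that list, and 1 core subunit are not reported here) and those whose direction differed between the controls, 51 in all. Others were chosen after their values were seen.

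Transcript lengths were medians over protein-coding transcripts of GENCODE M21. An alternative kept transcripts matched to RefSeq (82 of the 83 genes had a length in each). The length trend was a loess curve with span 0.5 per library. Near-identical copies were sought with blastn 2.17.0 among GENCODE M21 transcripts, since a search of the genome was not used here, as further genes aligned over at least 50% of the transcript at 95% identity or more. By this measure 12 of the 83 genes have a copy, and 11 share over 10% of their exon bases with another gene.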

Additional observations from a re-analysis of the deposited data

How the results depend on the processing

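The number of oxidative phosphorylation genes called (5) changed with every alternative, least with the 2 other filters on low counts, where it was 4. It was 3 under DESeq2 size factors, 8 under upper quartile factors and 21 with DESeq2's Wald test. With the length trend removed it was 3 (5090 of all genes called), and with RefSeq-matched lengths 14 (6061 of all genes). Leaving out 1 library in turn gave from 0 (each verapamil library) to 76 called (without control replicate 3), and 11 without control replicate 1, while the count over all genes, 3200 with every library, ran from 1460 to 7808. Every fit with 1 library left out, verapamil or control, had fewer residual degrees of freedom than the full fit. Upper quartile scaling moved the median of all genes from -0.01 to -0.13. Removing the length trend moved it to 0.12, or 0.13 with RefSeq-matched lengths. Directions were read against 0 and not against these medians. For the 49 named genes tested, the direction reversed for 0 under DESeq2 size factors, 10 with the length trend removed, 16 with RefSeq-matched lengths, 27 when control replicate 1 was left out and 5 when control replicate 3 was. These 49 include, by rule, every gene whose direction differed between the controls (32 of the 81 tested). The counts for the left-out controls therefore followed from that choice. The cause of the reversals was not tested. Genes with low counts, such as Cox6a2, are limited by depth. The test cannot separate group from the difference between the controls with 2 of them.

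Leaving out 1 library in turn, the median log2 fold change lay between -0.87 and -0.04 for the 81 genes, -0.87 and -0.06 for complex I, -0.38 and -0.11 for complex II, -0.87 and -0.10 for complex III, -0.89 and -0.42 for cytochrome c, -1.01 and 0.01 for complex IV and -1.02 and -0.06 for complex V. The log2 ratio of summed CPM lay between -0.80 and -0.04 for complex I, -0.27 and -0.13 for complex II, -0.74 and -0.11 for complex III, -0.89 and -0.42 for cytochrome c, -0.71 and 0.17 for complex IV, -0.63 and -0.09 for complex V and -0.68 and -0.03 for all 83 genes. Per transcript base it was -0.33 for complex II, and -0.31 with the longest or the RefSeq-matched transcript. Single genes that changed sign when 1 library was left out had log2 fold changes between -0.77 and 0.12 for Ndufa1, -1.41 and 0.04 for Ndufa2, -1.15 and 0.12 for Ndufa3, -0.40 and 0.43 for Ndufa6, -1.02 and 0.08 for Ndufb1, -0.52 and 0.30 for Ndufb11, -1.07 and 0.17 for Ndufb2, -0.81 and 0.10 for Ndufb5, -1.12 and 0.01 for Ndufb7, -0.68 and 0.07 for Ndufc2 and -0.12 and 0.11 for Ndufs1. The range was between -0.92 and 0.07 for Ndufs5, -0.92 and 0.08 for Ndufs7, -0.28 and 0.01 for Sdhd, -0.87 and 0.01 for Uqcrb, -0.22 and 0.00 for Uqcrc2, -0.26 and 0.08 for Uqcrfs1, -0.64 and 0.27 for Uqcrh, -0.50 and 0.32 for Cox4i1, -0.25 and 0.82 for Cox6a2, -1.06 and 0.01 for Cox6b1 and -1.13 and 0.06 for Cox6c. For the others it was between -1.0 and 0.04 for Cox7a2, -0.13 and 0.60 for Cox7a2l, -0.85 and 0.03 for Cox8a, -0.15 and 0.18 for Atp5c1, -1.44 and 0.09 for Atp5e, -0.32 and 0.37 for Atp5g2, -0.73 and 0.06 for Atp5h, -0.85 and 0.13 for Atp5l, -1.03 and 0.16 for Atp5mpl and -0.61 and 0.00 for Atp5pb. Values of 0.00 lay just above 0.

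With the length trend removed the median of complex II was -0.01, and the reversed genes had 0.25 for Ndufa6, 0.08 for Ndufb11, 0.21 for Ndufs1, 0.02 for Sdha, 0.08 for Sdhd, 0.09 for Uqcrc2, 0.11 for Uqcrfs1, 0.03 for Uqcrh, 0.11 for Cox4i1 and 0.24 for Atp5g2. With RefSeq-matched lengths the medians were -0.11 for the 81 genes, -0.13 for complex I, -0.03 for complex II, -0.10 for complex III, -0.10 for complex IV and -0.05 for complex V, and the reversed genes had 0.13 for Ndufa1, 0.42 for Ndufa6, 0.23 for Ndufb11, 0.09 for Ndufc2, 0.12 for Ndufs1, 0.00 for Ndufs5, 0.18 for Sdhd, 0.11 for Uqcrc2, 0.20 for Uqcrfs1, 0.24 for Uqcrh, 0.28 for Cox4i1, 0.01 for Cox8a, 0.40 for Atp5g2, 0.06 for Atp5h, 0.06 for Atp5l and 0.03 for Atp5mpl. Atp5c1 was -0.12 under upper quartile factors and -0.04 with the stricter filter, and Ndufs1 was 0.00 without a filter.

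The groups share replicate numbers 1 and 3, and with 2 such pairs the numbers were not shown to pair the libraries. Deviations from the group means correlated at 0.289 for number 1 and 0.0224 for number 3. In a fit with the number as a block, verapamil replicate 2 stands alone in its block. The group difference then rests on numbers 1 and 3, with fewer residual degrees of freedom than in the full fit. With the replicate number as a block, 25 of the 81 genes were called, all lower (15.7% of all genes were called lower and 10.6% higher), and the reversed genes had 0.09 for Ndufa6, 0.01 for Ndufs1 and 0.10 for Atp5g2. With the block and the length trend removed, 1 was called, lower (12.4% of all genes lower and 16.7% higher), the medians were -0.20 for the 81 genes, -0.01 for complex II, -0.19 for complex IV and -0.12 for complex V, and the reversed genes had 0.33 for Ndufa6, 0.18 for Ndufb11, 0.23 for Ndufs1, 0.02 for Sdha, 0.08 for Sdhd, 0.13 for Uqcrc2, 0.13 for Uqcrfs1, 0.09 for Uqcrh, 0.15 for Cox4i1 and 0.31 for Atp5g2.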
